A study of Mus musculus with 4 samples.

Results

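Transcripts of 6 enzymes that detoxify foreign and oxidised compounds were followed in mouse liver across 2 genotypes and 2 feeding states. They are the glutathione transferases Gstm3, Gsta1 and Gsta2, the quinone reductase Nqo1, the microsomal epoxide hydrolase Ephx1 and the aldehyde oxidase Aox1, 6 of the 943 genes in 2 deposited gene tables. The genes were selected on their ratios between the genotypes in these same libraries, so their ratios and counts are a description and no test is given.

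The study measured transcript levels by RNA-seq in total RNA from liver, in 4 libraries with 1 library for each group. Control liver carried the label WT with shNC and was taken from fasted and from refed mice. Targeted liver carried the label L_Cyb5b with shCyb5a and was also taken fasted and refed. The names point to Cyb5b changed in liver and to a short hairpin, for which sh usually stands, against Cyb5a. No label states the allele, a Cre line, the hairpin vector, the mice's sex and age, how long they were fasted or refed, or whether RNA of several mice was pooled.

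CYB5A and CYB5B, the cytochromes b5 of the endoplasmic reticulum and of the outer mitochondrial membrane, are small electron carriers. They serve desaturases, sterol demethylation and part of the reactions of cytochromes P450. Detoxification in hepatocytes runs in steps: P450 enzymes and oxidases introduce or expose a reactive group, epoxide hydrolases and quinone reductases remove reactive epoxides and quinones, and transferases attach glutathione, glucuronate or sulfate. In mouse liver many of these genes are known targets of NRF2, the sensor of electrophiles, and of the nuclear receptors CAR and PXR. Glutathione transferases work as dimers, and their classes alpha, mu, pi and theta differ in the compounds they accept.

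Sequences of the alpha class come first because they set what the counts of Gsta1 and Gsta2 can mean. In GENCODE M21 transcripts, 90.5% of the 50-base words of Gsta1 also occur in another gene. Gm3776, a further alpha-class copy, holds 75.7% of them and Gsta2 holds 46.6%. For Gsta2 the shared part is 49.8%. The coding sequence of Gsta1 is 99.7% identical to that of Gm3776, with 2 differing bases. It is 97.6% identical to that of Gsta2, with 16 differing positions of 669 aligned, 3 of them gaps. A stretch near the end of the reading frame shows how small the differences are. It runs from position 577 to 666 of the Gsta1 coding sequence, on chromosome 9, and capitals mark the 6 positions at which the 3 copies differ.
Gsta1: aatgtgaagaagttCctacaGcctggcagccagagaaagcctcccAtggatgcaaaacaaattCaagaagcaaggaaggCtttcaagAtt
Gsta2: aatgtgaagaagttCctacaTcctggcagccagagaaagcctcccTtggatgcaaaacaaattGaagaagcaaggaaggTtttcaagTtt
Gm3776: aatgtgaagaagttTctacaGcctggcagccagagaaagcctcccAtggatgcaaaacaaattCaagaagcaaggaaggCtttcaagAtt
In this stretch Gsta1 and Gm3776 differ at a single position, so a read from it can seldom tell them apart. No label or header says how such reads were counted, and the values of Gsta1, Gsta2 and Gm3776 are therefore uncertain one by one. The other genes were less affected. Gstm3 shared 28.8% of its words, most of them with the gene Gm8834 at 16%. Ephx1 shared 1.70%, Aox1 0.42% and Nqo1 0%.

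Promoters of Gsta1 and Gsta2 are shown because, of the 6 genes, these had the lowest ratios of refed over fasted level, as given further on. The windows come from the RefSeq table for GRCm38.p6, in which all 6 genes had an entry. The sequences run 5′ to 3′ on the strand of the gene, from 147 bases before the annotated start to 3 bases after it, and capitals mark GCGTG, the core of the xenobiotic response element bound by the aryl hydrocarbon receptor AHR. That of Gsta1 lies at chr9:78230522-78230671 on the plus strand and that of Gsta2 at chr9:78347143-78347292 on the minus strand.
Gsta1: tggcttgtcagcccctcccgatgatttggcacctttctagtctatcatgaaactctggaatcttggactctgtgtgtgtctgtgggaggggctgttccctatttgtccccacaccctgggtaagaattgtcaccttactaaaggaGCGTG
Gsta2: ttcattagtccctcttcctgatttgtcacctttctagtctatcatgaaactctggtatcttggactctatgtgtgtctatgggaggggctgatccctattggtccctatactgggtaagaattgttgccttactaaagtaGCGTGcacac
The full windows have 300 bases, 250 before and 50 after the start. Aligned end to end, those of the pair were equal at 232 of 311 positions (74.6%), with gaps counted as differences. Searched on both strands, GCGTG was present in 3 of the 6 windows, those of Gsta1, Gsta2 and Aox1, against 32.4% of all 32851 promoters in the table. The antioxidant response element core bound by NRF2 was searched as TGACNNNGC, present in 12.4% of all promoters, and as TGAGNNNGC, present in 17.6%. Neither form was in any of the 6 windows, so no match overlapped a GCGTG. A match is a description of letters, and a missing match says nothing beyond these windows.

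The unit of level is TPM, in which the reads of a gene are divided by its length and the results scaled to a fixed total per library. The authors also deposited FPKM, which is not scaled to a fixed total. TPM exceeded FPKM by 1.30 times in control fasted, 1.5 times in targeted fasted, 1.23 times in control refed and 1.25 times in targeted refed liver. A log2 ratio of targeted over control was thereby 0.21 larger in TPM than in FPKM when fasted and 0.03 larger when refed. A log2 ratio of refed over fasted was 0.09 smaller in TPM in control and 0.27 smaller in targeted liver. Reads behind each value were recovered from the deposited p-values and ratios or estimated from FPKM. From FPKM and transcript lengths, the depth was about 13400000 to 13500000 reads per library, an estimate too coarse to order the libraries. Relative to control fasted, the deposited p-values imply 1.01 times as many reads in targeted fasted, 1.02 times in control refed and 1.03 times in targeted refed liver. Intervals of ratios below are 95% Clopper-Pearson intervals of the read ratio, with both limits rescaled to the TPM ratio. They therefore stand around the TPM ratio and can leave out the read ratio. Intervals of the differences between genotype ratios are 95% normal approximations from the reads of the 4 libraries. All intervals cover counting error only, since reads are not independent molecules and nothing here measures the spread between mice.

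The targeted genes were lower in both feeding states. Cyb5a was at 1686 TPM in control and 207 TPM in targeted fasted liver, and at 1274 and 166 TPM refed. Cyb5b was at 72.4 and 27.4 TPM fasted, and at 174 and 49.5 TPM refed. None of the 8 hepatocyte markers stood in either table, so the liver label was not checked against them. Of 35 markers of bile duct cells, endothelium, macrophages, lymphocytes, stellate cells, neutrophils and blood, 15 stood in the tables. All 15 were in the fasted table as lower in targeted liver, as were 69.7% of all genes there. Of the 15, 1 macrophage marker was also listed for refed liver, as higher in targeted liver. So were 78.2% of all genes listed for refed liver. The summed level of the 15 was 512 TPM in control fasted, 244 in targeted fasted, 234 in control refed and 335 in targeted refed liver. Most of each sum came from the 3 blood markers, at 312, 161, 158 and 217 TPM in the same order. The part of these other cells in the ratios below was not tested. In whole tissue, fewer cells of a type and less RNA per cell cannot be told apart.

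All 6 detoxification genes had higher TPM in targeted than in control liver in both feeding states. When fasted, 4 of the 6 were at least 2-fold higher, against 25.1% of the 943 genes. When refed, all 6 were at least 2-fold higher, against 27.6%. The median log2 ratio of the 6 was 1.27 fasted, where that of the 943 genes was -0.86, and 1.80 refed, where that of the 943 genes was 0.47. Since the genes were selected on these contrasts, nothing is read from the excess. The 943 genes are themselves only those that passed the authors' threshold in a table, at an absolute log2 ratio of at least 1.

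**Figure D1:**
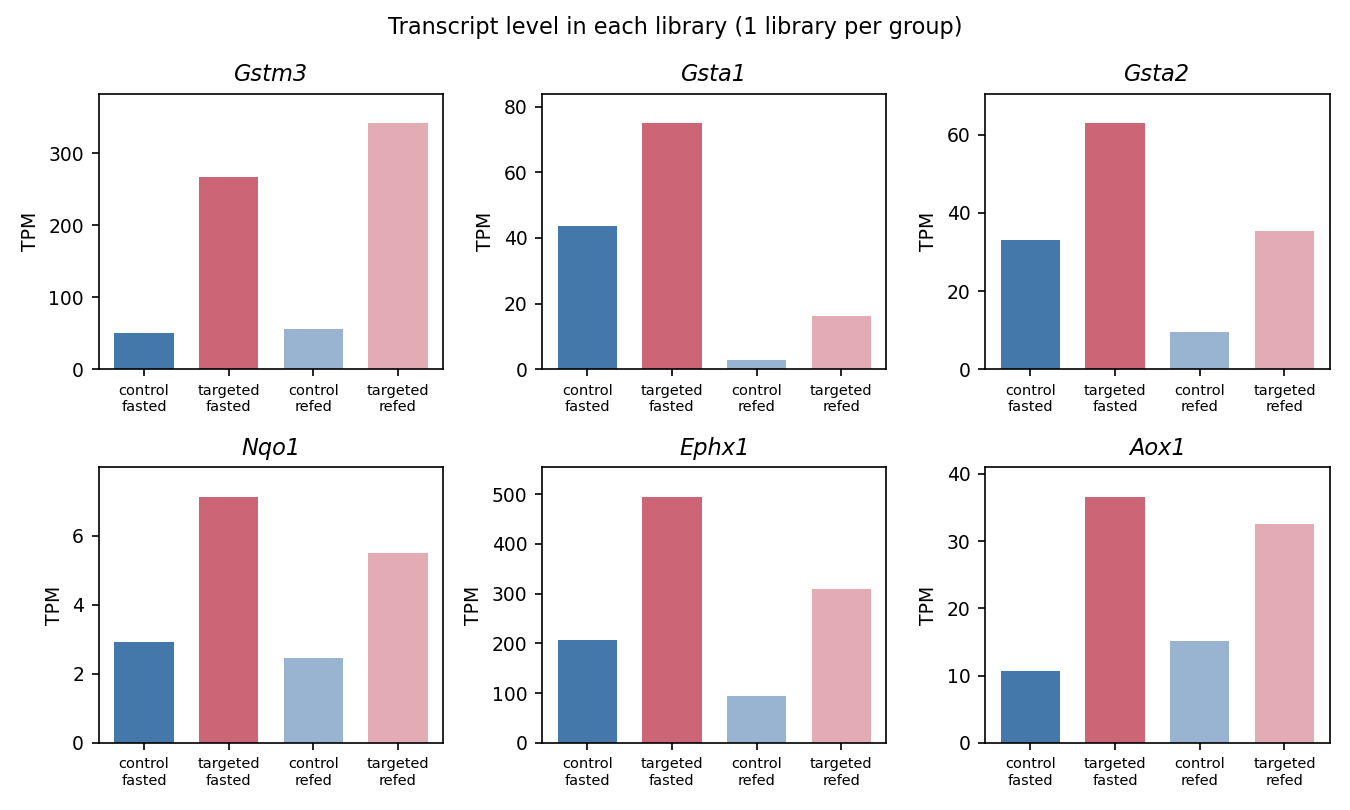
Level of each of the 6 genes in TPM (vertical axis, from 0, with its own range in each panel) in the 4 libraries, 1 bar per library. Each red bar stands above the blue bar of the same feeding state, and the refed bars of Gsta1 are far below its fasted bars.

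Gstm3, a mu-class glutathione transferase, had the largest genotype ratio of the 6 genes in both states, though when refed the counting interval of Gsta1 held it. It was at 49.9 TPM in control fasted, 267 TPM in targeted fasted, 55.5 TPM in control refed and 342 TPM in targeted refed liver. Both targeted libraries were thus high and both control libraries low, with no overlap across feeding states. The targeted level was 5.36-fold higher when fasted (interval 4.89 to 5.88; 4.64-fold in FPKM) and 6.16-fold higher when refed (5.67 to 6.70). The control libraries stood behind these ratios with 555 and 665 reads. Fasted and refed control liver differed 1.11-fold, with an interval of 0.99 to 1.25 that holds 1, and refed targeted liver was 1.28-fold higher than fasted (1.22 to 1.35; 1.54-fold in FPKM).

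Gsta1, an alpha-class transferase that also reduces lipid peroxides, differed most between feeding states. Its level was 43.5 TPM in control fasted, 75.0 TPM in targeted fasted, 2.81 TPM in control refed and 16.1 TPM in targeted refed liver. Both refed libraries were below both fasted ones. Refed control liver was 15.5-fold lower than fasted (9.94 to 25.4) and refed targeted liver 4.66-fold lower (3.80 to 5.75). The genotype ratio was 1.72 fasted (1.49 to 2.0) and 5.73 refed (3.58 to 9.59). The refed control value rests on 21 reads and the refed targeted value on 120. Gsta1 was not in the fasted table, and its fasted reads, about 301 and 457, are estimates from FPKM.

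Gsta2, its close alpha-class paralog, was also highest in targeted fasted and lowest in control refed liver, and differed less than Gsta1 between feeding states. It was at 33.0 TPM in control fasted, 63.0 TPM in targeted fasted, 9.61 TPM in control refed and 35.4 TPM in targeted refed liver. Unlike in Gsta1, the targeted refed level stood slightly above the control fasted level. That small difference rests on 285 reads and on about 247 reads estimated from FPKM, and no interval was computed for it. Refed liver was 3.44-fold lower than fasted in control (2.65 to 4.50) and 1.78-fold lower in targeted liver (1.53 to 2.08; 1.48-fold in FPKM). The genotype ratio was 1.91 fasted (1.63 to 2.24) and 3.68 refed (2.86 to 4.80). Gsta2 also stood outside the fasted table. In FPKM the fasted ratios of Gsta1 and Gsta2 were 1.49 and 1.65, below the 2-fold threshold of that table, while the member nearest above it, Ephx1, was at 2.07.

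Because Gsta1, Gsta2 and Gm3776 share transcript sequence, their levels were also added. Gm3776 alone was at 21.5 TPM in control fasted, 46.0 TPM in targeted fasted, 0.80 TPM in control refed and 8.90 TPM in targeted refed liver. Its control refed value rests on 6 reads, and its fasted reads, about 152 and 287, are estimates from FPKM. The fasted reads of all 3 copies are thus such estimates. The sum of the 3 was 98.0 TPM in control fasted, 184 TPM in targeted fasted, 13.2 TPM in control refed and 60.4 TPM in targeted refed liver. Targeted liver was 1.88-fold higher in this sum when fasted (1.71 to 2.06) and 4.57-fold higher when refed (3.69 to 5.71). On refeeding the sum was 7.41-fold lower in control (6.03 to 9.20) and 3.05-fold lower in targeted liver (2.73 to 3.40). The order of the libraries in the sum was that of Gsta1. A further gene, Gm10639, shares 31.8% of the words of Gsta2 and 39.5% of those of Gm3776 and is not in the sum, so the sum can still depend on how reads were counted.

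Nqo1, which reduces quinones by transfer of a pair of electrons, had the lowest level of the 6 genes on the TPM scale in each library. Its level was 2.92 TPM in control fasted, 7.14 TPM in targeted fasted, 2.47 TPM in control refed and 5.49 TPM in targeted refed liver. The targeted libraries did not overlap the control libraries. Targeted liver was 2.45-fold higher when fasted (1.70 to 3.56) and 2.22-fold higher when refed (1.52 to 3.30). These ratios rest on 45 and 97 reads fasted and on 41 and 91 reads refed. No difference between feeding states was detectable at this depth, with refed over fasted at 0.85 in control (0.54 to 1.32) and 0.77 in targeted liver (0.57 to 1.03).

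Ephx1, which hydrolyses epoxides to diols in the endoplasmic reticulum, had the highest TPM of the 6 genes in each library except targeted refed liver, where Gstm3 was higher. It was at 207 TPM in control fasted, 495 TPM in targeted fasted, 94.1 TPM in control refed and 310 TPM in targeted refed liver. Both targeted libraries were above both control libraries, and within each genotype the refed library was lower. The genotype ratio was 2.39 fasted (2.30 to 2.49; 2.07 in FPKM) and 3.30 refed (3.13 to 3.48). Refed liver was 2.20-fold lower than fasted in control (2.08 to 2.33) and 1.60-fold lower in targeted liver (1.54 to 1.65; 1.33-fold in FPKM).

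Aox1, a molybdenum enzyme that oxidises aldehydes and nitrogen heterocycles, was the single gene of the 6 in the authors' shorter second sheets, which hold 14 fasted and 33 refed genes. It was at 10.6 TPM in control fasted, 36.6 TPM in targeted fasted, 15.1 TPM in control refed and 32.5 TPM in targeted refed liver. The targeted libraries were again both above the control libraries. Its genotype ratio was 3.45 fasted (3.12 to 3.81; 2.99 in FPKM) and 2.15 refed (1.97 to 2.34). Control liver was 1.42-fold higher refed than fasted (1.28 to 1.59). In targeted liver refed over fasted was 0.89 in TPM (0.83 to 0.95) but 1.07 in FPKM, so its direction there depends on the scale.

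**Figure D2:**
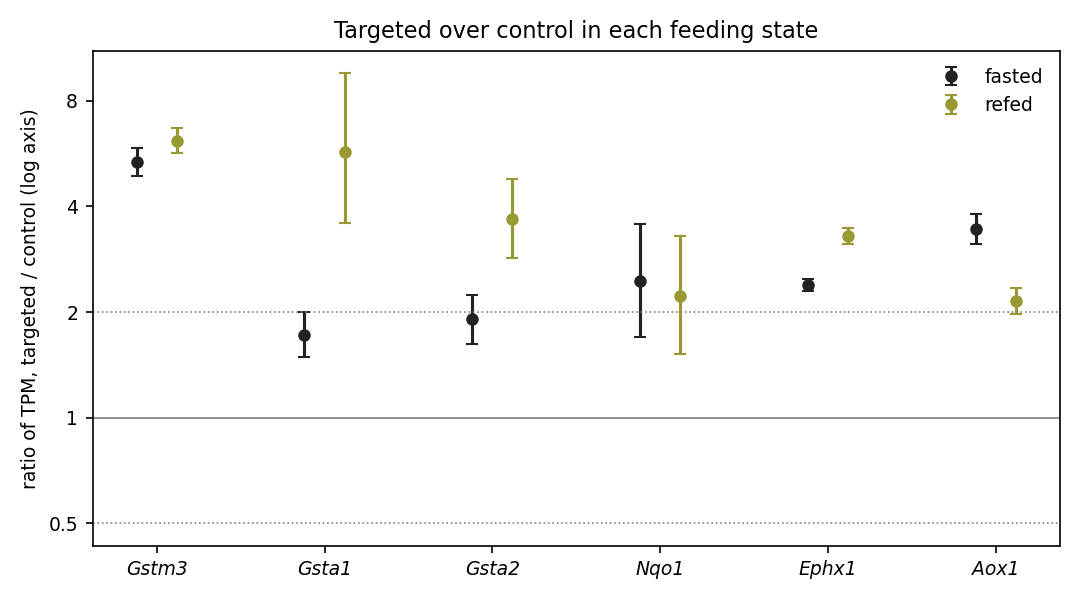
Ratio of TPM, targeted over control (log axis), for each gene in fasted and refed liver, 1 library per group. Points are the ratios, bars the 95% counting intervals, the solid line marks 1 and the dotted lines 2-fold; all 12 points lie above 1, and those of Gsta1 and Gsta2 are higher when refed.

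In the authors' deposited table for fasted liver, the log2 ratio of targeted over control was 2.24 for Gstm3, 1.59 for Aox1, 1.11 for Nqo1 and 1.07 for Ephx1. The authors' deposited table for refed liver gave 2.62 for Gstm3, 2.52 for Gsta1, 1.88 for Gsta2, 1.72 for Ephx1, 1.15 for Nqo1 and 1.09 for Aox1. These are ratios of reads and lie close to the ratios of FPKM. They differ from the TPM ratios mainly in the fasted state, where TPM and FPKM diverge most.

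The genes did not share a single response to feeding. Of the 6, 3 were at least 2-fold lower in refed than in fasted control liver, against 44.8% of the 943 genes. In targeted liver 1 was, Gsta1, against 18.0%. Both counts lie near the share of all genes. The median log2 ratio of refed over fasted was -0.69 for the 6 genes and -0.84 for all 943 in control liver, and -0.53 and 0.26 in targeted liver. The genes lower in refed liver beyond counting error were Gsta1, Gsta2 and Ephx1 in both genotypes, and Gstm3, Nqo1 and Aox1 differed by less than 2-fold in both. The fasted control library also enters the fasted genotype ratio, so the contrasts are not independent of each other.

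**Figure D3:**
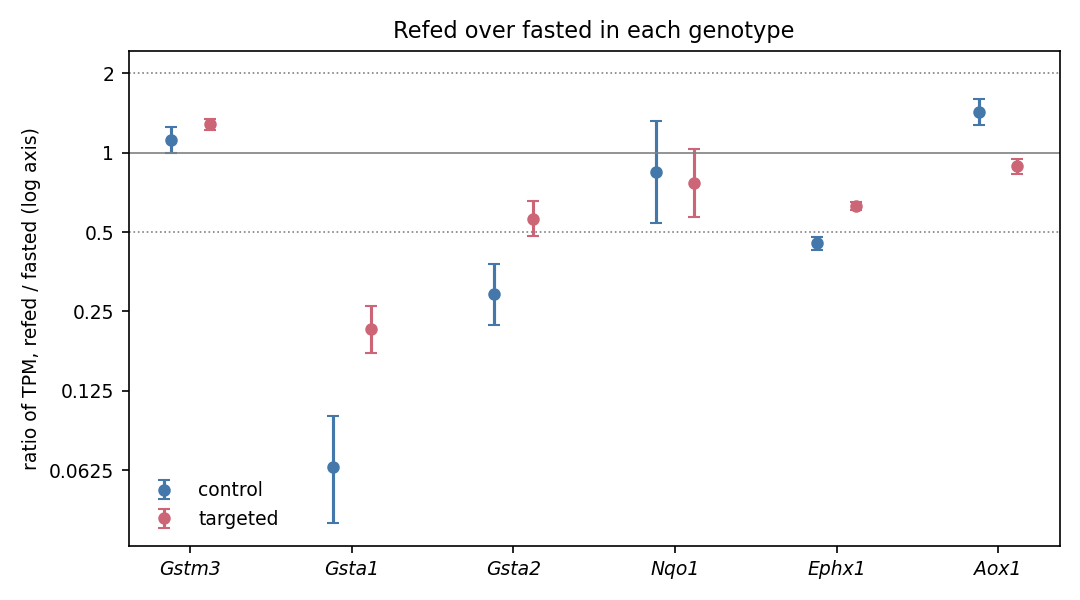
Ratio of TPM, refed over fasted (log axis), for each gene in control and targeted liver, 1 library per group. Points are the ratios and bars the 95% counting intervals. Gsta1, Gsta2 and Ephx1 lie below 1 in both genotypes with bars clear of 1, further below in control. The points of Nqo1 are also below 1 in both genotypes, but its bars cross 1, as does the control bar of Gstm3.

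The difference between the genotype ratios of the feeding states, refed minus fasted on the log2 scale of TPM, ordered the genes from Gsta1 to Aox1. It was 1.73 for Gsta1 (counting interval 1.03 to 2.43), 0.95 for Gsta2 (0.52 to 1.38) and 0.46 for Ephx1 (0.37 to 0.56). For Gstm3 it was 0.20 (0.02 to 0.38), and for Nqo1 -0.14 with an interval of -0.87 to 0.60 that holds 0. Aox1 alone was below 0 beyond counting error, at -0.68 (-0.87 to -0.50). In FPKM each of these differences was higher, at 1.91 for Gsta1, 1.13 for Gsta2, 0.64 for Ephx1, 0.38 for Gstm3, 0.04 for Nqo1 and -0.50 for Aox1. With 1 library per group these differences have no replicate check. Gsta1 and Gsta2 stood in the refed table alone. Selection on the refed ratio favours a positive difference for them, so nothing is read from their place in the order.

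Likeness of pattern was measured over the 4 libraries as the root mean square difference of log2(TPM + 1), each gene centred on its own mean. Among the 6, Ephx1 and Gsta2 were closest at 0.21, Aox1 and Nqo1 followed at 0.31, and Gsta1 and Gstm3 were farthest apart at 1.66. The paralogs Gsta1 and Gsta2 were 0.81 apart. Among 534 genes with at least 5 TPM in a library, the nearest to Gsta1 were Gm3776 at 0.15 and Apoa4 at 0.33. Gm3776 shares transcript sequence with Gsta1, and Apoa4 is an apolipoprotein of lipid transport. Those nearest to Gsta2 were Abcg5, a subunit of a sterol exporter, at 0.12 and Xlr3a at 0.13. Ephx1 was nearest to Abcg8, the partner of Abcg5 in that exporter, at 0.19 and to Abcg5 at 0.21. Nqo1 was nearest to the glucose transporter Slc2a1 at 0.10 and to Mtx3 at 0.12. Aox1 was nearest to the P450 gene Cyp2c29 at 0.13 and to the glucuronosyltransferase Ugt2b35 at 0.24. Gstm3 had no close neighbour, with Cyp2c29 and 9130409I23Rik both at 0.57.

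The wider set of detoxification genes was drawn from 9 lists with 228 genes, of which 41 stood in either table, the 6 genes included. The fasted table held 25 of them, 19 higher and 6 lower in targeted liver, with a median log2 ratio of 1.44. Among all 722 genes there, 30.3% were higher, and their median was -0.96. The refed table held 27, 24 higher and 3 lower, with a median of 1.38. Among all 284 genes there, 78.2% were higher, and their median was 1.19, so the refed share of the lists lies near that of all genes. Genes of the lists outside both tables were not analysed here.

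Of 28 glutathione transferase genes, 9 stood in the tables, and each was listed as higher in targeted liver, 2 in the fasted table, where 30.3% of all genes were higher, and 8 in that of refed liver, where 78.2% were. The most abundant was Gstm1 of the mu class, at 1055 TPM in control fasted, 2226 TPM in targeted fasted, 729 TPM in control refed and 2279 TPM in targeted refed liver. Its coding sequence of 732 bases and that of Gstm3 of 654 bases were equal at 79.9% of 732 aligned positions. Gaps count as differences there, so the difference in length lowers that share. Gstm2 was at 73.3 and 120 TPM in control and targeted fasted liver and at 107 and 224 TPM refed. Gstm4 was at 14.1 and 30.0 TPM fasted and at 30.8 and 67.0 TPM refed. Gstm2 and Gstm4 were higher in refed than in fasted liver of both genotypes, while Gstm1 was 1.45-fold lower in refed control liver. The theta-class gene Gstt2 was at 52.6 and 65.7 TPM in control and targeted fasted liver and at 14.4 and 29.4 TPM refed. Gstt3 was at 17.4 and 47.4 TPM fasted and at 14.0 and 24.7 TPM refed. The pi-class gene Gstp2 was at 93.8 and 71.2 TPM fasted and at 32.9 and 76.3 TPM refed, so its fasted order was opposite to that of the 6 genes.

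In the pathway column of the deposited tables, Glutathione metabolism was attached to 3 genes of the fasted table, of which 2 were higher, and to 11 of the refed table, of which 10 were higher. Of all genes, 30.3% were higher in the table for fasted liver and 78.2% in that for refed liver, and 10 of 11 is near the latter. The exceptions were Nat8 when fasted and G6pdx, the first enzyme of the pentose phosphate pathway and a source of NADPH, when refed. G6pdx was at 4.16 TPM in control and 3.91 TPM in targeted fasted liver, and at 34.1 and 14.5 TPM refed. Gss, which makes glutathione in the last step of its synthesis, was at 36.6 and 46.3 TPM fasted and at 22 and 48.2 TPM refed. It was the only 1 of 26 glutathione and thioredoxin system genes in either table.

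Of 25 further known NRF2 targets, 3 stood in the tables, with no common direction. Abcc3, an exporter of conjugates, was at 27.2 TPM in control and 83.3 TPM in targeted fasted liver, and at 8.93 and 31.2 TPM refed. The aldo-keto reductase Akr1b8 was at 4.17 and 1.79 TPM fasted and at 2.27 TPM in both refed libraries. G6pdx was the other. Among 16 regulators of detoxification genes, Maff, a small partner protein of NRF2, was the only 1 in a table, at 9.82 and 4.46 TPM in control and targeted fasted liver and at 1.77 and 2.88 TPM refed.

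Of 41 glucuronosyltransferase and sulfotransferase genes, 3 stood in the tables. Ugt1a9 was at 50.4 and 118 TPM in control and targeted fasted liver and at 32.2 and 50.4 TPM refed. Ugt2b35 was at 53.5 and 121 TPM fasted and at 63.6 and 166 TPM refed. Ugt2b38 was lower in targeted liver, at 8.60 and 2.30 TPM fasted and at 19.5 and 13 TPM refed. Ugt1a9 shares exons with the other Ugt1a genes, so its reads may not be its own.

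Of 44 aldehyde and carbonyl enzymes and carboxylesterases, 5 stood in the tables, 1 higher when fasted and 3 higher and 1 lower when refed. Over all genes, 30.3% were higher when fasted and 78.2% when refed, and 3 of 4 is near the latter. Akr1c19 was at 63.0 and 98.9 TPM in control and targeted fasted liver and at 21.3 and 47.9 TPM refed. The carboxylesterase Ces1b was at 83.4 and 99.1 TPM fasted and at 23.6 and 54.4 TPM refed, and Aldh3b1 at 1.74 and 2.14 TPM fasted and at 0.85 and 2.61 TPM refed. Carboxylesterases of the second family split. Ces2c was at 8.48 and 20.3 TPM fasted and at 53.4 and 63.8 TPM refed, while Ces2b was at 0.73 and 0.74 TPM fasted and at 3.70 and 1.26 TPM refed.

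Of 13 flavin monooxygenase, methyltransferase and acetyltransferase genes, 2 stood in the tables, both lower in targeted liver when fasted. Among all genes of the fasted table, 69.7% were lower. Nnmt, which methylates nicotinamide, was at 724 and 364 TPM in control and targeted fasted liver and at 86.7 and 65.2 TPM refed. Nat8, whose human counterpart acetylates cysteine conjugates to mercapturates, the end products of glutathione conjugation, was at 16.4 and 5.85 TPM fasted and at 21.2 and 16.9 TPM refed. Of 23 genes that mark CAR, PXR and AHR activity, most of them P450 genes, 14 stood in the tables. When fasted 11 were higher and 1 lower, Cyp1b1, and when refed 7 were higher and 1 lower, Alas1. The shares higher over all genes are again 30.3% fasted and 78.2% refed, and 7 of 8 is near the latter. The median log2 ratio of the genes of this list was 1.92 fasted and 1.54 refed.

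**Figure D4:**
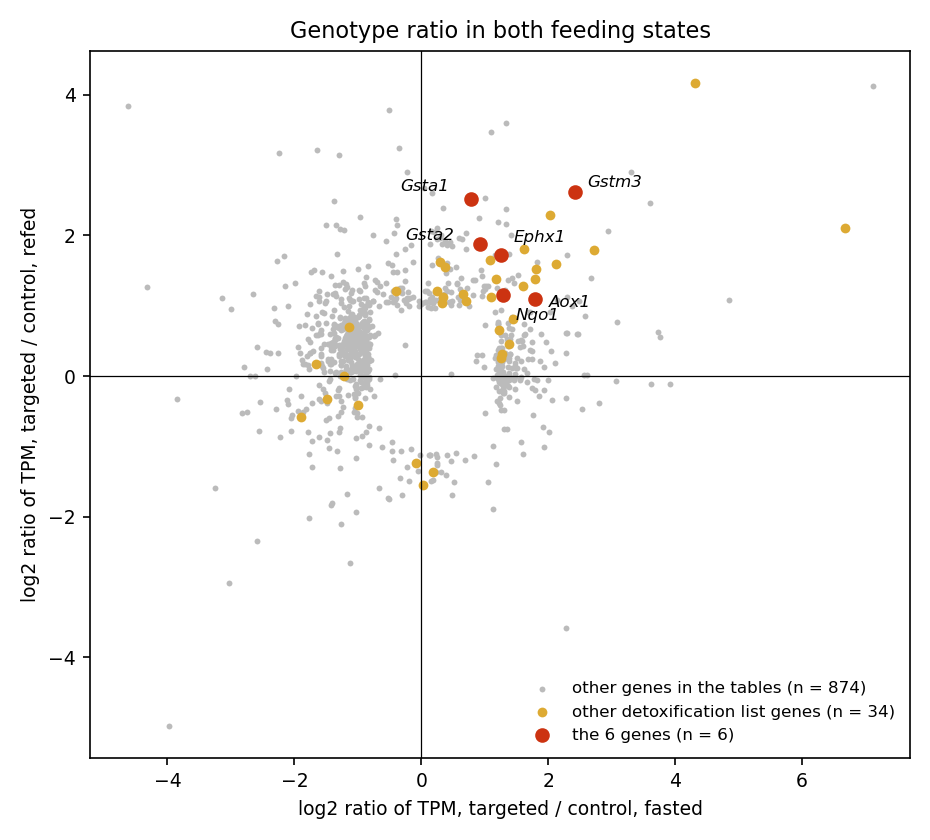
Log2 ratio of TPM, targeted over control, in fasted (horizontal axis) and refed liver (vertical axis) for the 914 genes above 0 TPM in all 4 libraries, 1 point per gene. The empty centre comes from the authors' threshold; all 6 genes lie in the upper right, with 24 of 34 other list genes and 26.5% of the 914 genes.

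Over both feeding states together, 242 of 914 genes above 0 TPM in every library were higher in targeted liver in each, or 26.5%. Of the 34 other list genes among them 24 were, and of the 6 genes all 6 were. The genes entered the tables for their size in at least 1 state, and the 6 were selected from them, so these shares are given as a description.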

How the data were processed

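Each of the 4 libraries is 1 group, so no test was made. The authors deposited, per the file headers, TPM and FPKM with 2 decimals for all 4 libraries. They also deposited a log2 ratio and a p-value of targeted over control in each table, and of refed over fasted control liver in the fasted table. No label or header names an aligner, annotation, genome build or strandedness. Per the labels' protocols, TRIzol was used to isolate total RNA.

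The deposited p-values have the form of a doubled Audic-Claverie tail for 2 libraries, so they compare reads, not conditions, and were used only to recover reads. Among genes whose p-value could be solved, 679 of 697 (97.4%) gave a single pair of whole reads in the fasted contrast, 660 of 676 (97.6%) in control refed over fasted and 248 of 263 (94.3%) in the refed contrast. Matches were required within a relative 2e-05 in p and 1e-09 in log2. All 689 library values solved in 2 contrasts were equal. Remaining reads came from the deposited ratio (targeted Gstm3 and Ephx1) or from FPKM (fasted Gsta1, Gsta2 and Gm3776). On solved genes the FPKM route had a median error of 0.463% and a 95th percentile of 7.45%. The solving step was tested on simulated data.

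Ratios are of TPM with nothing added, and genes were called at 2-fold. Alternatives were FPKM, 1 TPM added, a minimum of 1 TPM and the authors' log2 ratios of targeted over control. The members and lists were chosen with earlier results of these data known. The named genes are the 6 members, the list genes in a table with at least 1 TPM in a library, the 2 nearest genes per member, Cyb5a and Cyb5b. Genes of the P450 list are given by counts with only the lower ones named, an exception made after their values were seen. Shared 50-base words and coding identity were computed from GENCODE M21, and promoters come from RefSeq (GRCm38.p6). Python 3.11.15, numpy 2.4.6, pandas 2.3.3, scipy 1.17.1, Biopython 1.88 and matplotlib 3.10.9 were used.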

Additional observations from a re-analysis of the deposited data

Results flagged for a closer look

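Aox1 differed in direction between genotypes on refeeding. The log2 ratio of refed over fasted TPM was 0.51 in control and -0.17 in targeted liver. In FPKM the values were 0.60 and 0.09, so the opposite directions hold in TPM and not in FPKM. Gstp2, a pi-class transferase, had a log2 ratio of targeted over control of -0.40 when fasted and 1.21 when refed. In FPKM these were -0.60 and 1.19. Maff had -1.14 when fasted and 0.70 when refed, and in FPKM -1.35 and 0.68. With 1 library per group none of these differences was tested.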

How the results depend on the processing

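The counts of genes past 2-fold stayed within 1.5 times of those reported under each alternative run. For the 6 genes, the refed count was 5 with 1 TPM added, when Nqo1 missed the threshold. Of 24 ratios of the 6 genes, 8 left their counting interval in FPKM and 1 changed direction, that of Aox1 on refeeding in targeted liver, from -0.17 to 0.09 on the log2 scale. With 1 TPM added none of the 24 left its interval. Of 10 ratios of targeted over control in the authors' tables, 3 did, those of fasted Gstm3, Ephx1 and Aox1. The authors' log2 ratios of refed over fasted control liver were not part of this comparison. For Ephx1 that ratio was -1.03, against -1.14 in TPM. FPKM and TPM differ by the factors given for each library. Depth limits Gsta1 in control refed liver (21 reads) and Nqo1 (41 to 97 reads) most. No paired analysis was possible because each group has 1 library and the labels give no replicate number.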
